A study of Mus musculus with 9 samples.

Results

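Trp53, which encodes the transcription factor p53, and 8 genes that p53 is known to switch on (Cdkn1a, Mdm2, Bax, Ccng1, Bbc3, Phlda3, Zmat3 and Gdf15) were followed across the hippocampi of 9 mice. The 9 genes were chosen by symbol from the 24411 genes listed for every mouse, and all 9 were present and passed the filter on low values (an average over all mice of log2(10) or more), as did 14867 genes in all. CUG300 mice carried an adeno-associated virus of serotype 9 (AAV9) whose Egfp gene held 300 CTG repeats in its 3′-UTR, a construct that yields the expanded CUG RNA of myotonic dystrophy type 1, and CUG10 mice carried the same type of vector with 10 repeats. CWG-cPIP, a cyclic pyrrole-imidazole polyamide that binds CAG and CTG repeat DNA, was injected together with the virus at 83 μg/kg. The 3 groups were CUG300 mice given CWG-cPIP, CUG300 mice given vehicle and CUG10 mice given vehicle (n = 3 mice each), all male, wild-type C57BL/6J mice injected into CA1 of both hippocampi at 9 weeks of age per the study's methods, with 10 weeks as the age in the labels. RNA was taken on day 10. Every mouse thus carried a virus and surgery, no uninjected mouse was part of the series, the repeat reached the tissue by transduction and not through the germ line, and the promoter of the vector is not given in the sources used here.

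In cells without stress, p53 is kept scarce by Mdm2, a ubiquitin ligase that marks it for degradation and is itself a p53 target, so that the pair forms a negative feedback loop. DNA damage and other stresses release p53, largely through changes in the protein and not in its mRNA. The stabilized protein then binds response elements near its target genes. Cdkn1a encodes p21, which inhibits cyclin-dependent kinases and halts the cell cycle, and Ccng1 encodes cyclin G1. Bax and Bbc3 (also called PUMA) encode members of the BCL2 family that open the way to apoptosis. Phlda3 encodes a repressor of the kinase Akt, Zmat3 encodes a zinc finger protein that binds RNA, and Gdf15 encodes a stress cytokine of the TGF-β family that is secreted. In neurons, which do not divide, p53 is best known for its part in death after injury.

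The DNA that p53 binds consists of a pair of 10-base arms, joined directly or across a spacer, and the start-site regions of the members were searched for such pairs. The windows, taken from RefSeq on GRCm38.p6, ran from 250 bases before to 50 bases after a gene's start, and 8 of the 9 members had at least 1, with 12 windows in all. The p53 response element was searched on both strands, with a spacer of up to 13 bases and up to 2 mismatches to the 20 bases of the arms. The matches of Cdkn1a, Ccng1 and Bax, and for comparison the best pairs without a spacer in Bbc3 and Trp53, which exceed the mismatches allowed, are shown 5′ to 3′ along the gene's strand, with the 4 bases at the core of each arm in capitals:
Cdkn1a: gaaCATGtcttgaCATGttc
Ccng1: agaCCTGcccgggCAAGcct
Bax: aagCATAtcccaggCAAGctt
Bbc3: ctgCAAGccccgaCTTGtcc
Trp53: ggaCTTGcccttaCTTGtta
The Cdkn1a match, at chr17:29090928-29090947 on the plus strand, had 1 mismatch, and its first base lay 51 bases upstream of the RefSeq start at 29090979. In the window of the later Cdkn1a start at 29093769, the best pair had 5 mismatches. The Ccng1 match, at chr11:40755462-40755481 on the minus strand, had 1 mismatch and began 195 bases upstream. The Bax match, at chr7:45467090-45467110 on the minus strand, had 1 mismatch and a spacer of 1 base and began 212 bases upstream. Cdkn1a, Ccng1 and Bax were thus the 3 members with a match, whereas 10.1% of all 32851 windows held one at this setting. The first arm of the Cdkn1a match also paired, across 12 bases, with an arm upstream of it without a mismatch, which 0.0731% of windows showed. The pairs of Bbc3, at chr7:16309486-16309505, and of Trp53, at chr11:69580284-69580303, both on the plus strand, each had 3 mismatches, and 6.29% of windows held a pair without a spacer that had as few. With a spacer of up to 13 bases allowed, 45.1% of windows did. A match is a stretch of letters, and p53 binding was not measured here.

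Values are regularized logarithms (rlog) of gene counts, on the log2 scale, in which low and variable counts are drawn toward the gene's mean, so that small genes such as Gdf15 show compressed differences. They are not divided by gene length, and levels are compared only between mice, not between genes. Medians over the genes tested lay between 8.43 and 8.54 per mouse, and the number of reads per mouse is unknown. All 8 hippocampal markers, among them Prox1 of dentate granule cells and Wfs1 of CA1 neurons, were measured. Mean rlog values per mouse were 9.66 to 9.79 with CWG-cPIP, 9.10 to 9.59 in vehicle-treated CUG300 mice and 9.50 to 9.55 in CUG10 mice. Single markers were less even. Prox1 had 8.73, 9.13 and 8.05 with CWG-cPIP, 7.36, 9.06 and 8.19 in CUG300 mice given vehicle, and 7.75, 8.09 and 8.40 in CUG10 mice. Lct, another of the 8, had 9.94, 9.89 and 9.52, then 8.86, 10.14 and 7.86, and then 8.85, 9.21 and 8.96 in the same groups. Between vehicle-treated CUG300 and CUG10 mice, Prox1 differed by 0.12, Wfs1 by −0.02 and Fibcd1 by −0.80, the last without overlap. Limma called 1 of the 8 lower, Fibcd1, and 0 higher. In CUG300 mice, Fibcd1 and Wfs1 were higher without overlap with CWG-cPIP than with vehicle, by 0.66 and 0.35. Limma called 0 of the 8 there. The labels do not say more of the replicates than their number, so p-values measure the spread between these mice. In whole tissue, a change in the number of cells of a type and a change in RNA per cell cannot be told apart.

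In CUG300 mice given vehicle, 8 of the 9 genes had a higher mean than in CUG10 mice, by 0.28 to 1.09 on the log2 scale, as did 48.4% of all genes tested, and Zmat3 had a lower one. Trp53 rose and Zmat3 fell (limma with Benjamini-Hochberg adjustment over the genes tested, adjusted p under 0.05), and the other 7 did not pass. This fit shared the variance of each gene over all 3 groups, including the mice given CWG-cPIP. With the 2 compared groups alone, Trp53, Cdkn1a, Mdm2, Bbc3 and Gdf15 passed and Zmat3 did not. In the fit of all 9 mice, the 1 gene called higher compares with 7.37% of all genes tested called higher. The 1 called lower compares with 3.34%, so that 2 of 9 were called where 10.7% of all genes were. Of all genes, 1096 were called higher and 496 lower, but 1014 and 908 after median centering and 888 and 642 after quantile scaling. At an unadjusted p under 0.05, 6 of the 9 differed, against 30.5% of all genes. The median of the 9 differences was 0.59, against a median of −0.01 over all genes tested. Values of the groups did not overlap for 5 genes that were higher in CUG300 mice given vehicle (Trp53, Cdkn1a, Mdm2, Bbc3 and Gdf15), where 18.2% of all genes showed this pattern, and for Zmat3, which was lower, where 16.7% did. The plot of rlog values by mouse shows the 9 genes in the 3 groups.

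**Figure D1:**
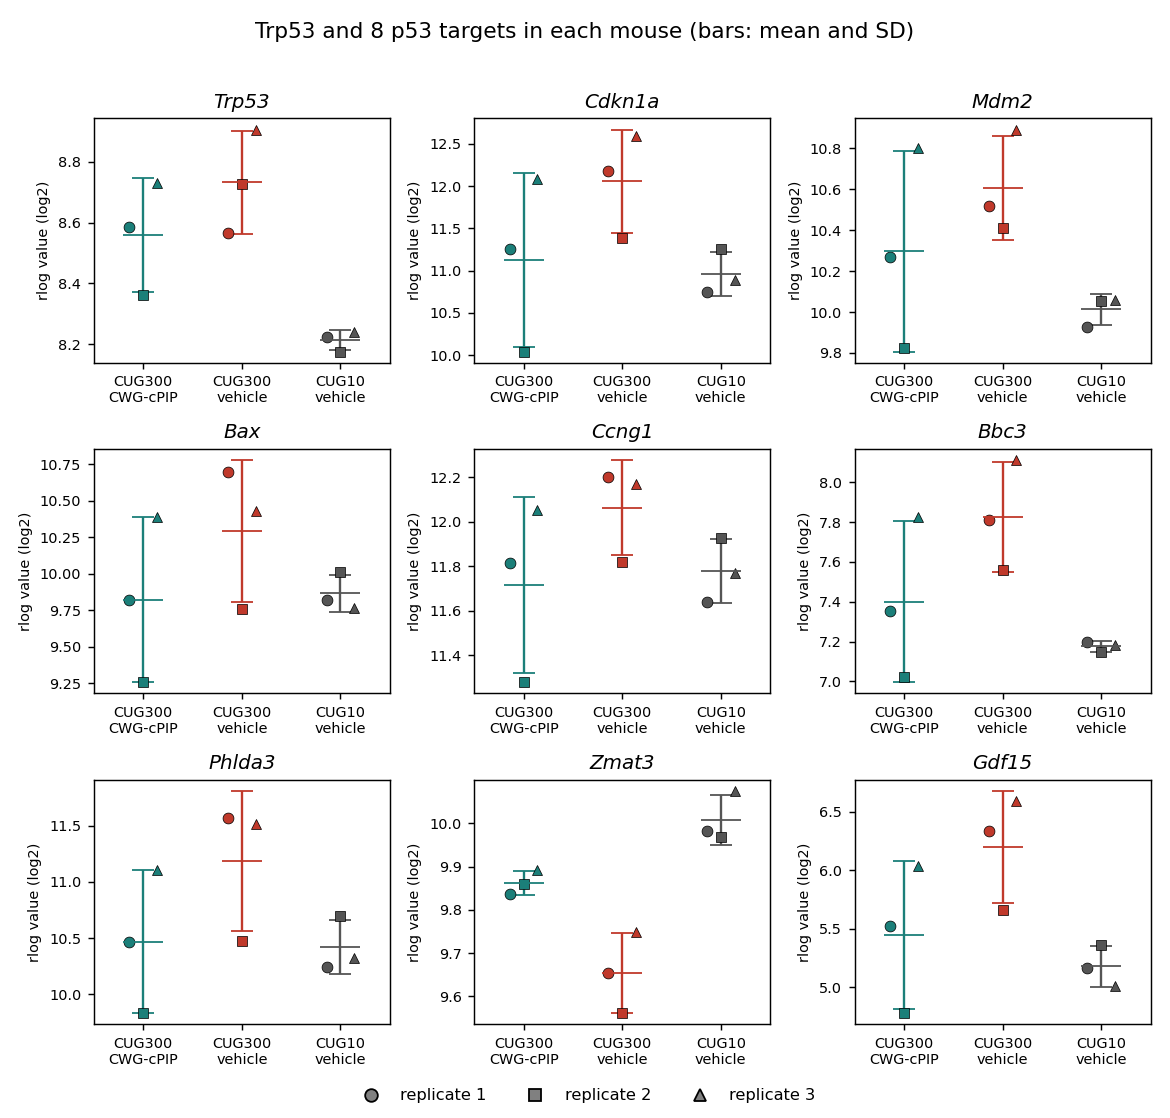
Rlog values (log2 scale, vertical axes that differ between panels) of Trp53 and 8 p53 targets in each mouse, with CUG300 mice given CWG-cPIP, CUG300 mice given vehicle and CUG10 mice from left to right and the mean and SD of each group as a bar with whiskers. For Trp53 every CUG300 mouse lay above the 3 CUG10 mice, which stood at 8.22, 8.18 and 8.24, whereas for Zmat3 every CUG300 mouse lay below them.

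Trp53, on chromosome 11 of GRCm38 from 69580359 to 69591873, had rlog values of 8.59, 8.36 and 8.73 in CUG300 mice given CWG-cPIP, 8.57, 8.73 and 8.91 in CUG300 mice given vehicle, and 8.22, 8.18 and 8.24 in CUG10 mice. All 6 CUG300 mice, with or without the compound, were higher than every CUG10 mouse. In CUG300 mice given vehicle, the mRNA of p53 rose by 0.52 (SE 0.13, 95% interval 0.23 to 0.81, limma adjusted p = 0.0379). The difference stayed between 0.43 and 0.60 when each mouse was left out in turn, but the call was lost in 5 of these 9 fits: the limma adjusted p was 0.105, 0.116 and 0.123 without CUG10 replicate 1, 2 and 3, 0.127 without replicate 3 of CUG300 vehicle and 0.0727 without replicate 1 of CWG-cPIP. The annotation also holds a pseudogene, Trp53-ps, and how reads shared with it were divided is not stated.

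Mdm2, the ligase that removes p53, lies on chromosome 10 from 117688875 to 117710758. It had rlog values of 10.27, 9.82 and 10.80 with CWG-cPIP, 10.52, 10.41 and 10.89 in CUG300 mice given vehicle, and 9.93, 10.05 and 10.06 in CUG10 mice. The 3 CUG300 vehicle-treated mice lay above the 3 CUG10 mice, whereas CWG-cPIP-treated mice ranged from below all CUG10 mice to near the highest vehicle-treated CUG300 mouse. Between CUG300 vehicle-treated and CUG10 mice, Mdm2 differed by 0.59 (SE 0.23, 95% interval 0.08 to 1.10), which did not pass the test across all genes (limma adjusted p = 0.115). It passed without replicate 3 of CWG-cPIP (limma adjusted p = 0.0382).

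Of the cell cycle genes, Cdkn1a had the largest difference in means of the 9 genes. The p21 gene, on chromosome 17 from 29090976 to 29100727, had rlog values of 11.26, 10.04 and 12.08 with CWG-cPIP, 12.18, 11.39 and 12.60 in CUG300 mice given vehicle, and 10.75, 11.25 and 10.89 in CUG10 mice. Its CUG300 vehicle-treated mice were all above the CUG10 mice, though replicate 2 by little, and the CWG-cPIP-treated mice held both a value below every other mouse and a value above every CUG10 mouse. The difference of 1.09 between CUG300 vehicle-treated and CUG10 mice had a wide interval (SE 0.48, 95% interval 0.02 to 2.17) and did not pass (limma adjusted p = 0.158). Ccng1, the cyclin G1 gene on chromosome 11 from 40748552 to 40755311, had 11.82, 11.28 and 12.05 with CWG-cPIP, 12.20, 11.82 and 12.17 in CUG300 mice given vehicle, and 11.64, 11.93 and 11.77 in CUG10 mice. These groups overlapped, and the difference of 0.28 between CUG300 vehicle-treated and CUG10 mice (SE 0.19, 95% interval −0.16 to 0.72) did not pass (limma adjusted p = 0.351). A short gene model of unknown kind lies antisense within Cdkn1a, and the sources used here do not say whether reads were counted by strand.

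The proapoptotic pair differed in how cleanly the groups separated. Bbc3, on chromosome 7 from 16308393 to 16318205, had rlog values of 7.35, 7.02 and 7.83 with CWG-cPIP, 7.81, 7.56 and 8.11 in CUG300 mice given vehicle, and 7.20, 7.15 and 7.18 in CUG10 mice. The CUG10 mice lay within 0.05 of each other, and every CUG300 vehicle-treated mouse was above them. The difference of 0.65 (SE 0.21, 95% interval 0.18 to 1.12) did not pass (limma adjusted p = 0.0754), and it passed without replicate 2 of CUG300 vehicle, replicate 2 of CWG-cPIP or replicate 3 of CWG-cPIP (limma adjusted p = 0.0478, 0.0455 and 0.0297). Bax, on chromosome 7 from 45461697 to 45466898, had 9.82, 9.25 and 10.39 with CWG-cPIP, 10.69, 9.76 and 10.43 in CUG300 mice given vehicle, and 9.82, 10.01 and 9.77 in CUG10 mice. Replicate 2 of the CUG300 vehicle-treated mice was lower than all CUG10 mice, and the difference of 0.43 (SE 0.30, 95% interval −0.25 to 1.10) did not pass (limma adjusted p = 0.36). It was 0.23 without replicate 1 and 0.70 without replicate 2 of CUG300 vehicle. A predicted gene, Gm45808, overlaps Bax on the same strand.

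Gdf15, the secreted cytokine, on chromosome 8 from 70629393 to 70632456, had 5.52, 4.78 and 6.04 with CWG-cPIP, 6.34, 5.66 and 6.59 in CUG300 mice given vehicle, and 5.16, 5.36 and 5.01 in CUG10 mice. Vehicle-treated CUG300 mice were all above CUG10 mice, by 1.02 in the mean (SE 0.32, 95% interval 0.29 to 1.76, limma adjusted p = 0.0729). As with Bbc3, the difference passed without replicate 2 of CUG300 vehicle, replicate 2 of CWG-cPIP or replicate 3 of CWG-cPIP (limma adjusted p = 0.0385, 0.0306 and 0.0365). Phlda3, the Akt repressor, on chromosome 1 from 135766119 to 135769136, had 10.46, 9.83 and 11.11 with CWG-cPIP, 11.57, 10.47 and 11.52 in CUG300 mice given vehicle, and 10.25, 10.70 and 10.32 in CUG10 mice. Replicates 1 and 3 of the CUG300 vehicle-treated mice stood well above the CUG10 mice and replicate 2 among them. Without that mouse Phlda3 passed (log2 difference 1.12, limma adjusted p = 0.0483), and with it the difference was 0.77 (SE 0.36, 95% interval −0.05 to 1.58, limma adjusted p = 0.186).

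Zmat3, on chromosome 3 from 32334792 to 32366014, went the other way. It had rlog values of 9.84, 9.86 and 9.89 with CWG-cPIP, 9.65, 9.56 and 9.75 in CUG300 mice given vehicle, and 9.98, 9.97 and 10.07 in CUG10 mice. The groups formed 3 separate layers, with CUG10 mice highest, CWG-cPIP-treated mice between and CUG300 vehicle-treated mice lowest. In CUG300 mice given vehicle, Zmat3 fell by 0.35 on the log2 scale (SE 0.08, 95% interval −0.54 to −0.17, limma adjusted p = 0.0339). The call was lost without CUG10 replicate 1, 2 or 3 (limma adjusted p = 0.0953, 0.0955 and 0.139), without replicate 3 of CUG300 vehicle (0.0918) and without replicate 1 of CWG-cPIP (0.0715), with differences of −0.40 to −0.31 over all mice left out in turn. It was also lost in a fit of the 2 groups alone (limma adjusted p = 0.0692) and with choroid plexus markers as a covariate (0.107).

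In CUG300 mice, 8 of the 9 genes had a lower mean with CWG-cPIP than with vehicle, as did 50.6% of all genes tested, and Zmat3 had a higher one. None of these 9 differences passed the test. Limma called 0 of the 9 genes and 0% of all genes tested in this comparison, in which the smallest adjusted p was 0.483, and at an unadjusted p under 0.05 the members numbered 2 (Zmat3 and Gdf15), against 8.82% of all genes. Limma without a variance trend and in its robust form also called 0 genes. The differences were −0.93 for Cdkn1a (95% interval −2.003 to 0.15), −0.75 for Gdf15 (−1.49 to −0.02), −0.72 for Phlda3 (−1.54 to 0.10), −0.47 for Bax (−1.15 to 0.20), −0.43 for Bbc3 (−0.90 to 0.05) and −0.35 for Ccng1 (−0.79 to 0.09). Of the feedback pair, Mdm2 differed by −0.31 (−0.82 to 0.20) and Trp53 by −0.17 (−0.46 to 0.12). Zmat3 differed by 0.21 (0.02 to 0.40) and was the 1 member whose values did not overlap, a pattern in the higher direction that 4.97% of all genes showed, whereas 0 members were lower without overlap, against 3.5% of all genes. These sizes rested on single mice. Without replicate 2 of CWG-cPIP, the differences were −0.39 for Cdkn1a, −0.42 for Gdf15, −0.40 for Phlda3, −0.19 for Bax, −0.24 for Bbc3, −0.13 for Ccng1, −0.070 for Mdm2 and −0.074 for Trp53. Without replicate 3 of CWG-cPIP, they were −1.41 for Cdkn1a, −0.76 for Bax and −0.56 for Mdm2. Among the vehicle-treated CUG300 mice, leaving out replicate 1 or 2 gave −0.27 or −0.74 for Bax, and leaving out replicate 3 gave −0.165 for Mdm2 and −0.086 for Trp53. The median over the 9 genes was −0.43, against −0.003 over all genes tested. For Cdkn1a, Mdm2, Bax, Ccng1, Bbc3 and Phlda3, the interval held both 0 and a fall as large as the difference between CUG300 vehicle-treated and CUG10 mice. The CUG300 vehicle-treated mice are shared by both comparisons, and the values of each are therefore only set side by side in the plot of differences.

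**Figure D2:**
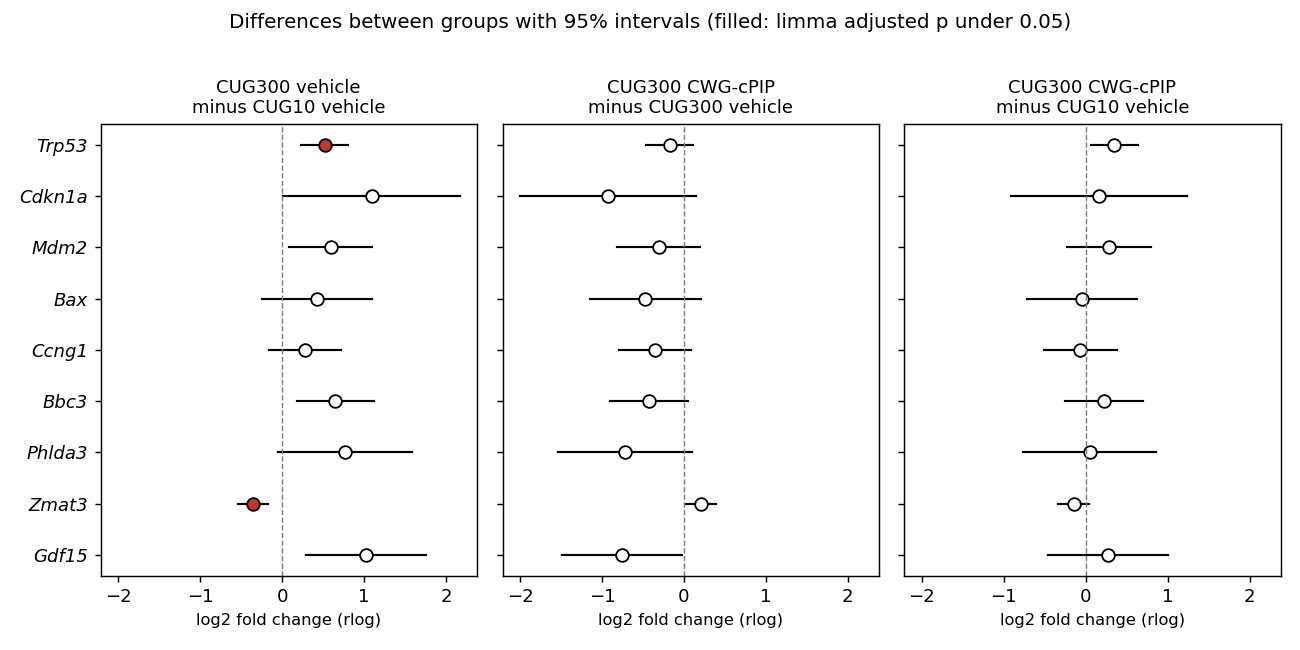
Log2 differences of rlog values for the 9 genes in the 3 comparisons, with CUG300 vehicle minus CUG10 on the left, CWG-cPIP minus vehicle in CUG300 mice in the middle and CUG300 CWG-cPIP minus CUG10 on the right, points for the estimates, lines for 95% intervals, and filled points for a limma adjusted p under 0.05. Only Trp53 (0.52) and Zmat3 (−0.35), both on the left, are filled, and the intervals of Cdkn1a are the widest in each panel.

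Set against CUG10 mice, CUG300 mice given CWG-cPIP differed by −0.15 to 0.35 on the log2 scale over the 9 genes, and 0 passed, as for 0% of all genes tested. The difference was positive for 6 of the 9, against 50.1% of all genes. At an unadjusted p under 0.05, limma gave 1 member, Trp53, against 13.4% of all genes. Trp53 was also the 1 member that was higher without overlap (difference 0.35, 95% interval 0.06 to 0.64, limma adjusted p = 0.299), where 13.4% of all genes were, and Zmat3 the 1 that was lower without overlap (difference −0.15, −0.33 to 0.04), where 12.4% were. For the other 7, CWG-cPIP-treated mice lay on both sides of the CUG10 mice. Differences were 0.28 for Mdm2, 0.27 for Gdf15, 0.22 for Bbc3, 0.16 for Cdkn1a, 0.05 for Phlda3, −0.04 for Bax and −0.06 for Ccng1, and 5 of these directions turned when 1 mouse was left out. Without replicate 3 of CWG-cPIP, Cdkn1a, Gdf15 and Phlda3 stood at −0.31, −0.028 and −0.27. Without replicate 2 of CWG-cPIP, Bax and Ccng1 stood at 0.24 and 0.15, and without replicate 2 of CUG10 at 0.028 and 0.010. Phlda3 also turned without CUG10 replicate 1 (−0.041) or 3 (−0.0035) and with median centering (−0.013).

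The 3 mice given CWG-cPIP were not alike in these genes. Replicate 3 was the highest of the group for 9 of 9 genes, and replicate 2 was the lowest of all 9 mice for 7 of 9, all except Trp53 and Zmat3. Over the 8 genes other than Zmat3, the median distance from the CUG10 mean was 0.22, −0.45 and 0.67 in replicates 1, 2 and 3 of CWG-cPIP, 0.73, 0.39 and 0.91 in those of CUG300 vehicle, and −0.07, 0.15 and −0.04 in those of CUG10. Replicate 2 with CWG-cPIP was therefore below the CUG10 mice, replicate 3 was within the range of the vehicle-treated CUG300 mice, and replicate 1 was between. Among CUG300 mice given vehicle, replicate 2 was the lowest for 8 of 9 genes. The median SD over the 9 genes was 0.491 with CWG-cPIP and 0.275 with vehicle in CUG300 mice, against 0.128 in CUG10 mice. The SD exceeded that of CUG10 mice for 8 genes with CWG-cPIP and for 9 with vehicle.

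**Figure D3:**
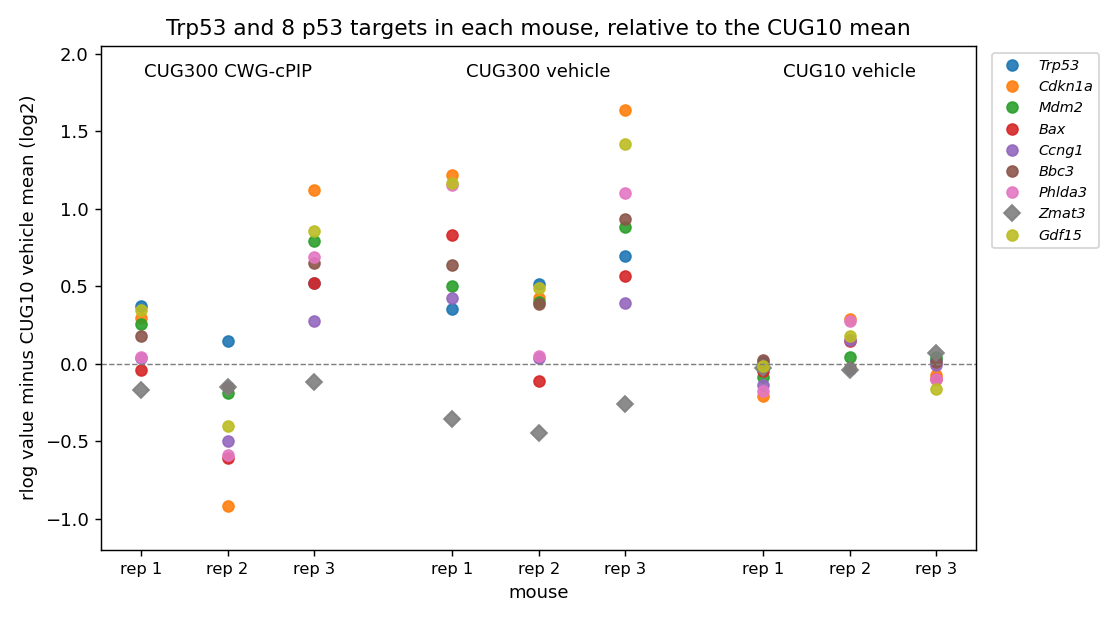
Rlog value minus the mean of the CUG10 mice (log2 scale) for each of the 9 genes in each mouse, with CWG-cPIP, CUG300 vehicle and CUG10 mice from left to right, a color for each gene and diamonds for Zmat3. Within the groups given CWG-cPIP or vehicle in CUG300 mice the points other than Zmat3 spread widely, with medians without Zmat3 of 0.22, −0.45 and 0.67 in the mice given CWG-cPIP.

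The 7 genes other than Trp53 and Zmat3 followed each other closely from mouse to mouse. Across the 9 mice, Pearson's r was 0.79 to 0.98 over their 21 pairs, with a median of 0.94, and it was 0.79 to 0.98 also for deviations from group means, which leave out the differences between groups. Trp53 was related to these 7 less closely, with r from 0.49 to 0.89. Zmat3 had r from −0.71 to −0.30 with the other 8 genes, but 0.36 to 0.61 once group means were taken out, with the deviations of all groups pooled. This did not hold in each group. Among CUG10 mice, Zmat3 was lowest in replicate 2, in which Cdkn1a, Bax, Ccng1, Phlda3 and Gdf15 were highest. These are descriptions of 9 libraries that share their groups, tissue and scaling, and the same holds for the genes most like a member. The 3 genes whose values were most like those of Trp53 among the 13969 genes compared were Fnbp4 (r = 0.993), Fndc3a (0.991) and Zfp36l2 (0.990). For Cdkn1a they were Aen (0.980), a nuclease gene that is itself a p53 target, Pi4k2a (0.979) and Armc7 (0.977).

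A further 32 genes known as p53 targets, all measured, were listed by role. In CUG300 mice given vehicle, 3 of them (9.38%) rose relative to CUG10 mice and 0 fell, with 29 not passing, against 7.37% higher and 3.34% lower among all genes tested. The 3 were Fas, a death receptor (1.35, SE 0.28, limma adjusted p = 0.0256), Rps27l, a ribosomal protein gene (1.16, SE 0.27, limma adjusted p = 0.0316), and Gtse1, a cell cycle gene (1.05, SE 0.27, limma adjusted p = 0.0434). Means were higher for 25 of the 32 (78.1%), against 48.4% of all genes, values were higher without overlap for 15 (46.9%), against 18.2%, and the median difference was 0.37. Values were lower without overlap for 3, against 16.7% of all genes. They were Tigar, Gls2 and Ddb2, with differences of −0.37, −0.32 and −0.11, and none of them passed. Fas had rlog values of 7.09, 6.38 and 7.52 with CWG-cPIP, 7.82, 7.29 and 7.67 in CUG300 mice given vehicle, and 6.15, 6.48 and 6.08 in CUG10 mice, so that, as for Cdkn1a, replicate 2 with CWG-cPIP lay among or below the CUG10 mice. By role, the median difference was 0.57 for the 10 targets linked to apoptosis, where Pmaip1 (NOXA), a sensitizer for BAX and BAK, differed by 1.15 without passing (limma adjusted p = 0.0701). It was 0.41 for the 10 linked to growth arrest, where Btg2 and Gadd45a differed by 0.65 and 0.35 and Psrc1 by 0.75 (limma adjusted p = 0.1001), and none of the 3 passed. It was 0.05 for the 12 of DNA repair and metabolism, where the damage recognition genes Ddb2 and Xpc each differed by −0.11 and Sat1, a polyamine enzyme, by 0.99 (limma adjusted p = 0.0515). With CWG-cPIP against vehicle, 0 of the 32 passed (limma), 3 had an unadjusted p under 0.05, against 8.82% of all genes, 25 had lower means, against 50.6% of all genes, and the median difference was −0.31. Against CUG10 mice, 0 passed with CWG-cPIP, and the median difference was 0.11.

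**Figure D4:**
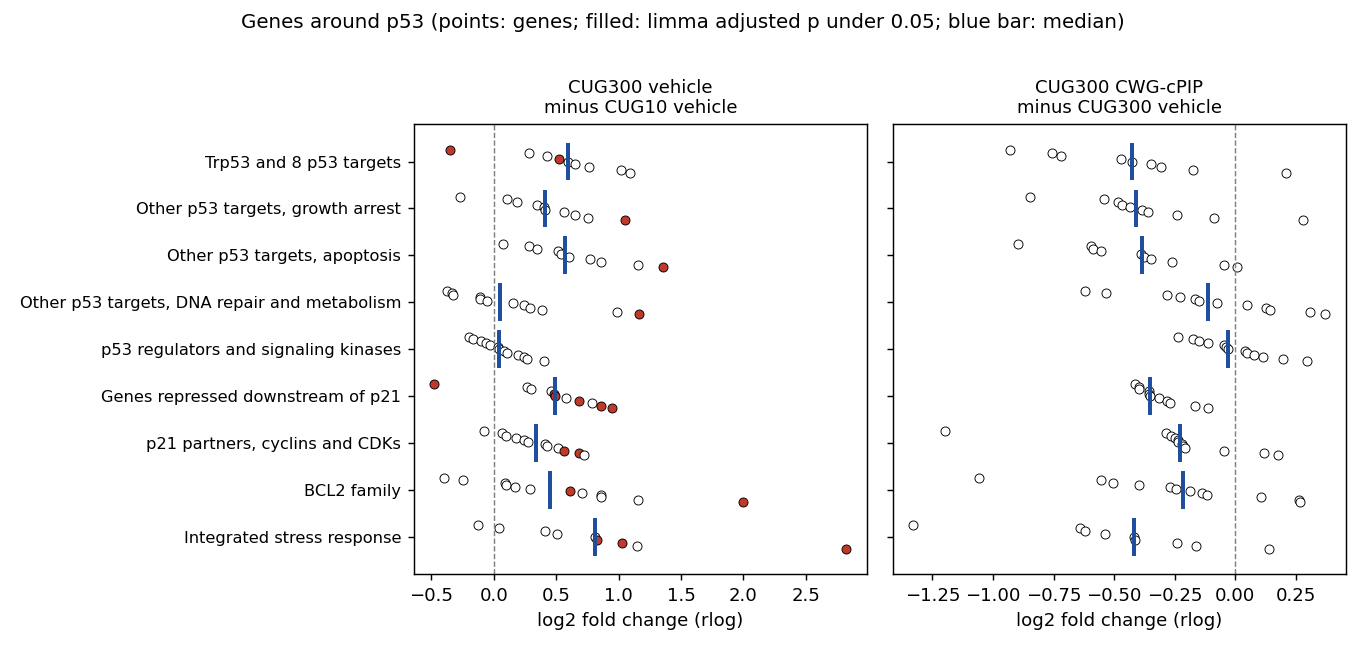
Log2 differences of rlog values for single genes (points) in lists around p53, with CUG300 vehicle minus CUG10 on the left and CWG-cPIP minus vehicle in CUG300 mice on the right, blue bars for list medians and filled points for a limma adjusted p under 0.05 (horizontal scales differ). On the left the median is 0.59 for the 9 members, 0.57 for other apoptosis targets and 0.04 for p53 regulators, and on the right no point is filled.

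The genes that act on p53 had a median difference of 0.04 in CUG300 vehicle-treated against CUG10 mice, against −0.01 over all genes tested. Of 14 regulators and kinases, 13 were measured and 0 passed, where 10.7% of all genes did. At an unadjusted p under 0.05 (limma) there were 2, against 30.5% of all genes. Values were higher without overlap for 3 (23.1%), against 18.2% of all genes. Mdm4, the partner of Mdm2, differed by 0.03, and Ppm1d, a phosphatase that reverses p53 activation, by 0.20. The largest were Rchy1, a ubiquitin ligase (0.40, limma adjusted p = 0.109), and Chek1, a checkpoint kinase (0.27, limma adjusted p = 0.106). The p53 paralogs Trp63 and Trp73 differed by 0.01 and −0.02.

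Among genes of dividing cells that p53 is known to repress through p21, 5 rose and 1 fell in CUG300 mice given vehicle relative to CUG10 mice, of 11 measured and 12 listed, against 7.37% of all genes called higher and 3.34% called lower. Means were higher for 10 of the 11, against 48.4% of all genes, with a median difference of 0.49. Cdk1, the mitotic kinase, had 5.18, 4.98 and 5.01 with CWG-cPIP, 5.31, 5.57 and 5.54 in CUG300 mice given vehicle, and 4.41, 4.68 and 4.74 in CUG10 mice, with no overlap between any of the groups, and rose by 0.86 in CUG300 mice given vehicle (SE 0.13, limma adjusted p = 0.0207). Mki67, a marker of proliferation, rose by 0.95 (limma adjusted p = 0.0422), and Ccnb2, Birc5 and Cdc20 rose by 0.48 to 0.68, while Ccnb1 differed by 0.58 without passing (limma adjusted p = 0.0572). E2f1, an activator of S phase genes, fell by 0.48 on the log2 scale (limma adjusted p = 0.0344). Among 12 measured cyclins, kinases and inhibitors that act with p21, Ccnd3 (0.68, limma adjusted p = 0.0265) and Ccna2 (0.56, limma adjusted p = 0.033) rose and 0 fell, against the same shares of all genes, while Ccnd1, Cdk2 and Cdk4 differed by 0.72, 0.43 and 0.24 and did not pass.

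In the BCL2 family, 2 of 12 measured genes rose in CUG300 mice given vehicle relative to CUG10 mice and 0 fell, against 7.37% and 3.34% of all genes, with a median difference of 0.45. They were Bcl2a1b (1.99, SE 0.50, limma adjusted p = 0.0392), a prosurvival gene of leukocytes with close copies among which reads may be divided, and Bid (0.61, limma adjusted p = 0.0447), a proapoptotic gene. Bak1, the partner of Bax, differed by 0.86 (limma adjusted p = 0.0603). The integrated stress response, which raises some of the same genes without p53 (Gdf15 among them), was measured in 9 genes, of which 3 rose and 0 fell, against those same shares. Atf3, a stress-induced transcription factor, had 7.86, 6.21 and 9.22 with CWG-cPIP, 9.001, 8.50 and 9.77 in CUG300 mice given vehicle, and 6.18, 6.52 and 6.10 in CUG10 mice, and rose by 2.82 (SE 0.64, limma adjusted p = 0.0314). As in the p53 targets, replicate 2 was the lowest and replicate 3 the highest of the mice given CWG-cPIP. Ddit3 (CHOP) rose by 1.03 (limma adjusted p = 0.041) and Chac1 by 0.83 (limma adjusted p = 0.0458), whereas Trib3 differed by 1.15 (limma adjusted p = 0.0605) and Atf4 itself by 0.51 (limma adjusted p = 0.165). With CWG-cPIP against vehicle, 0 genes of these lists passed (limma). At an unadjusted p under 0.05, which 8.82% of all genes reached, 6 of the 11 genes repressed downstream of p21 were lower, as were 2 of the 12 that act with p21, 1 of the BCL2 family was higher, and 0 of the stress response differed.

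The list means of interferon-response genes and of some cell markers ordered the mice given CWG-cPIP as most p53 targets did, and other list means did not. The counts called here are for CUG300 vehicle against CUG10, where 7.37% of all genes were called higher and 3.34% lower. The interferon list, with 10 of 10 genes called higher, had mean rlog values of 11.75, 9.86 and 12.46 in replicates 1, 2 and 3 of CWG-cPIP. It had 12.05 to 12.44 in vehicle-treated CUG300 mice and 8.47 to 9.35 in CUG10 mice. Replicate 2 was lowest and replicate 3 highest of the CWG-cPIP-treated mice. Monocyte and macrophage markers, 4 of 7 called higher, had means of 7.58, 6.75 and 8.47 with CWG-cPIP, 8.12 to 8.66 in vehicle-treated CUG300 mice and 5.80 to 6.29 in CUG10 mice. Ly6c2, Ccr2, Plac8, Lyz2 and Itgal were in the order of the interferon list with CWG-cPIP. The macrophage markers Mrc1 (5.98, 6.40 and 5.94) and Cd163 (5.25, 5.39 and 4.81) were highest in replicate 2 and lowest in replicate 3. Neuron markers, 1 of 7 called lower, were in the reverse order in the list mean, which was 13.30, 13.36 and 12.97 with CWG-cPIP. It was 12.76 to 13.16 in vehicle-treated CUG300 mice and 13.32 to 13.36 in CUG10 mice. Each neuron marker was lowest in replicate 3 of the CWG-cPIP-treated mice. Only Gad1 (12.35, 12.65 and 12.05) and Gad2 (11.27, 11.64 and 10.54) were clearly highest in replicate 2. Rbfox3, Syt1, Slc17a7 and Camk2a were highest in replicate 1, and Snap25 was level between replicates 1 and 2. T and NK cell markers, 4 of 6 called higher, were in the order of the interferon list. Their values were 5.20, 4.60 and 6.14 with CWG-cPIP, 5.67 to 6.17 in vehicle-treated CUG300 mice and 4.28 to 4.75 in CUG10 mice. Further lists not in the order of the p53 targets were those of microglia (2 of 7 called higher), endothelial and mural cells (0 of 7), astrocytes (2 of 6 called higher) and oligodendrocytes (0 of 7). All 7 oligodendrocyte markers had lower means, where 48.4% of all genes had higher ones, and their median difference was −0.62. As for the neuron mean, the mean of the oligodendrocyte markers was highest in replicate 2 and lowest in replicate 3 of CWG-cPIP. In replicates 1, 2 and 3 of CWG-cPIP, mean rlog values were 8.30, 8.40 and 8.70 for endothelial and mural markers, 12.65, 12.53 and 12.35 for astrocyte markers and 11.35, 11.79 and 10.96 for oligodendrocyte markers. Microglia markers had 9.67, 9.49 and 9.65 with CWG-cPIP, 9.67 to 9.80 in vehicle-treated CUG300 mice and 9.20 to 9.52 in CUG10 mice. The part of these cells in the levels of the p53 targets was not tested.

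Markers of the choroid plexus, an epithelium beside the hippocampus, had mean rlog values of 6.64 to 6.68 with CWG-cPIP, 8.42 to 9.62 in vehicle-treated CUG300 mice and 6.34 to 9.33 in CUG10 mice. Each of these 7 markers passed the filter on low values, and 0 passed the limma test in any comparison. In CUG300 mice, 6 of 7 were lower without overlap with CWG-cPIP than with vehicle, against 3.5% of all genes. An unadjusted p under 0.05 (limma) was reached by 6, against 8.82% of all genes. With the mean of the 7 as a covariate, Trp53 differed by 0.54 (limma adjusted p = 0.124) and Zmat3 by −0.40 (limma adjusted p = 0.107) between CUG300 vehicle-treated and CUG10 mice, and neither passed. With this covariate, Ccng1 differed by 0.19 in the same comparison. Between CWG-cPIP and vehicle in CUG300 mice, the covariate gave −0.61 for Cdkn1a, −0.19 for Mdm2, −0.25 for Bax, −0.15 for Ccng1 and −0.35 for Phlda3.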

How the data were processed

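Total RNA from 9 hippocampi was sequenced (directional kit, reads of 150 nt). Per the labels and methods, the authors used Trim Galore 0.6.6 for trimming, STAR 2.7.9a for alignment to GRCm38/mm10 and RSEM 1.3.3 for gene counts, and deposited regularized (rlog) log2 values made with DESeq2 1.36.0. Rlog options, annotation and use of strand are not given in the sources used here. Counts were not used here, depth is unknown and no count model was fitted. Each mouse was grouped by its label.

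Genes averaging log2(10) or more were compared with limma 3.58.1 in R 4.3.3 (1 mean per group over all 9 mice, variance trend, prior degrees of freedom 3.03, Benjamini-Hochberg adjustment, called at 0.05). Of these genes, 23 had symbols turned into dates and are not named. Coordinates are from GENCODE M21 on GRCm38. The members, and the 19 lists of related genes and markers, were chosen with earlier results of these data known. The rule named all members, from each list the leading 2 entries and those 2 that changed most in CUG300 vehicle-treated against CUG10 mice, and 3 genes most like Trp53 and Cdkn1a. It was kept for the lists around p53, whereas interferon genes and cell markers are given as list means, except for the single markers named. Ccnb2, Birc5, Cdc20, E2f1, Ccna2, Chac1 and Fibcd1 are named because they passed, after their values were seen. Tigar, Gls2, Lct and the single neuron, astrocyte, microglia, monocyte and macrophage markers were also named after their values were seen. On simulated data for CUG300 vehicle-treated against CUG10 mice (14867 genes), limma called 20 of 67 genes changed by 0.5, 49 of 67 changed by 1, 65 of 66 changed by 2 and 7 unchanged genes. The alternatives tried were centering on medians, quantile scaling, filters of log2(100) or none, limma without trend or robust, a log2 difference over 0.5, an adjusted p under 0.01, the compared groups alone, a replicate block and leaving out each mouse. The choroid plexus covariate was chosen after seeing the data.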

Additional observations from a re-analysis of the deposited data

How the results depend on the processing

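Between CUG300 vehicle-treated and CUG10 mice, limma called 1592 genes and 2 members. An adjusted p under 0.01 left 0 and 0, and a log2 difference over 0.5 left 1 member. A fit of the 2 groups alone called 5 members: Trp53, Cdkn1a, Mdm2, Bbc3 and Gdf15 passed (limma adjusted p = 0.0363, 0.0491, 0.0353, 0.0371 and 0.0304) and Zmat3 did not (0.0692). With the choroid plexus covariate 1 gene and 0 members were called. Leaving out each mouse gave 0 to 2490 genes and 0 to 5 members: 0 genes when replicate 1 or 3 of CUG10 or replicate 3 of CUG300 vehicle was missing, 2 when replicate 2 of CUG10 was, 265 when replicate 1 of CWG-cPIP was and 2490 when replicate 2 of CUG300 vehicle was. With CWG-cPIP against vehicle, 3 genes were called in the 2 groups alone and 0 to 3 when a mouse was left out, and against CUG10 mice 14 and 0 to 567 (567 without CWG-cPIP replicate 2). Members called stayed at 0 in both under every alternative. The causes of these changes were not tested, beyond the fewer mice or stricter threshold of the setting itself.

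For same-numbered mice of different groups, r of deviations from group means ran from −0.50 to 0.41. It was 0.40 and 0.41 for replicates 2 and 3 of CUG300 vehicle and CWG-cPIP. With 3 mice per group these values cannot decide whether the numbers pair the mice, and the labels do not say. A replicate block called 1512 genes and 3 members, with Bbc3 added (limma adjusted p = 0.0464), and 0 members in the other comparisons.

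Of the members' differences between CUG300 vehicle-treated and CUG10 mice, 150 values kept direction and call, 13 gained the call and 16 lost it. With CWG-cPIP against vehicle all 179 kept both. Against CUG10 mice 167 did and 12 turned. Median centering turned Phlda3 to −0.013, and the covariate turned Bax to 0.070 and Ccng1 to 0.038. With a mouse left out, the range was −0.31 to 0.71 for Cdkn1a and −0.028 to 0.60 for Gdf15 (turned without replicate 3 of CWG-cPIP), −0.27 to 0.36 for Phlda3 (turned without that mouse or CUG10 replicate 1 or 3), and −0.33 to 0.24 for Bax and −0.23 to 0.15 for Ccng1 (both turned without replicate 2 of either CUG10 or CWG-cPIP). Gdf15 fell below the filter at log2(100) and has no value there. Allowing 1 more mismatch raised the members with a p53 response element match from 3 to 5, and 45.1% of all windows held a match at that setting.

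Depth is unknown, and 3 mice per group left 95% intervals of 0.38 to 2.15 in width on the log2 scale.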
